A study of Mus musculus with 8 samples.

Results

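Focal adhesion plaque genes encode the cytoplasmic proteins that link integrins, the cell's matrix receptors, to actin filaments. A list of 38 such genes was looked up by symbol among the 23337 gene symbols measured, and all 38 were found, Tns2 under its older symbol Tenc1. Integrins themselves are not in the list. The RNA came from MOE cells, an established epithelial cell line from the mouse oviduct, the counterpart of the human fallopian tube, on the FVB strain background. Cells that had reached confluence were lifted with trypsin and replated on collagen, either 2D or as a 3D gel. Both groups were kept for 6 h in the usual MOE medium from which EGF had been left out, so neither group is a culture with EGF or a culture before plating. Each group had 4 RNA sequencing libraries, called 2D-1 to 2D-4 and 3D-1 to 3D-4 after their labels. The series concerns how cancer cells from the fallopian tube colonize the ovary, and the comparison asks how gene expression differs between the 2 forms of collagen. One line was used. The labels do not say whether each library had a culture of its own, and the p-values below measure the spread among the libraries, possibly a technical one.

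Focal adhesions form where clustered integrins hold collagen or another matrix. Talin and kindlin bind the integrin tail and switch the receptor on, vinculin and alpha-actinin fasten the complex to actin, and the kinases FAK, PYK2 and SRC pass the signal on by phosphorylating adaptors such as paxillin and p130Cas. A layer of LIM-domain proteins such as zyxin, and of Ena/VASP proteins, sits closest to the actin and responds to pulling force. In cells on a stiff flat surface these plaques are large, while in soft gels they are usually smaller.

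Reads per library ranged from 15692699 to 25862036, and 14064 to 14598 genes had at least 1 read. The values are normalized counts, which are reads divided by 1 size factor per library. Over the 11820 genes tested by limma, 401 were lower and 275 were higher on 3D collagen (adjusted p under 0.05), and 59.3% of the calls were decreases. Scaling by library size alone made that share 39.0% (318 lower, 498 higher), and it was 47.3% with upper-quartile scaling (370 lower, 412 higher). Among the markers of the labelled tissue, Krt8, Krt18, Krt19 and Pax8 were present in every library, from 441 CPM (reads scaled to one total per library) for the lowest Pax8 value to 3438 CPM for the highest Krt18 value. Cldn4, Wt1, Esr1 and Foxj1 were also present, from 8.08 CPM for the lowest Foxj1 value to 94.5 CPM for the highest Wt1 value. The other 4 of the 12 markers were near 0, with Epcam at no more than 1.26 CPM, Cdh1 at 0.956 to 5.23 CPM, Cldn3 at no more than 0.303 CPM and the oviduct glycoprotein gene Ovgp1 at no more than 1.37 CPM. Library 2D-4 was the lowest of the 2D libraries in 19 of the 37 focal adhesion genes tested (30.6% of all genes tested).

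The stretches before the transcription start of 4 members are printed here, because 3 of them (Fermt2, Zyx and Tln1) passed the test below and Vcl holds the motif that Fermt2 also has. Each is the 250 bases upstream of a RefSeq start on GRCm38.p6, 5′ to 3′ on the gene's own strand. Capitals mark a CArG box, the binding motif of serum response factor, or a GGAATG, the core motif of TEAD factors. Fermt2 lies at chr14:45530066-45530315 on the minus strand, Vcl at chr14:20929148-20929397 on the plus strand, Zyx at chr6:42349578-42349827 on the plus strand and Tln1 at chr4:43562584-43562833 on the minus strand.
Fermt2: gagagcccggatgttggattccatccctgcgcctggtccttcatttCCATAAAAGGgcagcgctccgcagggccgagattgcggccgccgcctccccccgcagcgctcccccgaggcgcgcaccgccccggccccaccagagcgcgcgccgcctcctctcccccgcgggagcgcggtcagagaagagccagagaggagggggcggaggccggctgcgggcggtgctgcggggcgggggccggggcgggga
Vcl: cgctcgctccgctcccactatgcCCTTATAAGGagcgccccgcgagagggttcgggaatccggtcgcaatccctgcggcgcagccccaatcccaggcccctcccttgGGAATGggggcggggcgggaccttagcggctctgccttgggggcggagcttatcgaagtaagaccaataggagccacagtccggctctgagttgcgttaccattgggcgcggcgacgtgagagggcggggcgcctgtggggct
Zyx: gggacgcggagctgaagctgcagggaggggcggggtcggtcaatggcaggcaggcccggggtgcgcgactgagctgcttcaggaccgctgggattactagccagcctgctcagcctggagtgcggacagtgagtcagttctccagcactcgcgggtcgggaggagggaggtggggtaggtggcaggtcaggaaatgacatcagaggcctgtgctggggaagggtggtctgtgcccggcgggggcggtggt
Tln1: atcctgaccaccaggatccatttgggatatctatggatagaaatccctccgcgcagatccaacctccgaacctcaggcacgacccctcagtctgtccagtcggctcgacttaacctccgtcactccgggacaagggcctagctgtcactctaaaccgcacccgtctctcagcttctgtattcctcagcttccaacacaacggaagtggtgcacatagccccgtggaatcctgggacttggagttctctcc

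RefSeq entries were found for 29 of the 38 genes, with 39 promoter windows running from 250 bases before to 50 bases after a start, and each motif was searched on both strands. The CArG box was found in 3 of the 39 windows (7.69%), at -204 from the start in Fermt2, at -227 in Vcl and at 1 in Trip6, against 1.63% of all 32851 windows of that length. In Fermt2 and Vcl it overlapped none of the other motifs searched. GGAATG was in 7 windows (17.9%) of Actn4, Evl, Fblim1, Lpp, Trip6 and Vcl, against 14.7% of all windows. The SP-factor core GGGCGG was in 27 windows (69.2%) against 35.7%, and TATAAA was in 3 (7.69%) against 13.6%. Member windows were also richer in G and C, with a median of 66.7% against 52.7%. A match describes letters only. Of the 6 genes that passed the test below, Ptk2b had no entry, and in the 6 windows of the other 5 (Bcar1 has 2) there was 1 CArG box and no GGAATG.

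Of the 38 genes, 37 passed the filter on low values (10 or more normalized counts in 4 or more libraries). Tns4, which encodes a short tensin, did not pass, with 0 to 3.68 normalized counts per library. At an adjusted p under 0.05, 6 of the 37 (16.2%) were lower on 3D collagen by limma, where 3.39% of all genes tested were lower. These were Bcar1, Ptk2b, Tln1, Tns1, Fermt2 and Zyx, and they were 2.01-fold to 2.80-fold lower on the scale of the fit. None of the 37 was higher, against 2.33% of all genes. The list was chosen with earlier results of these data known, so these shares are no independent test of it. At an unadjusted p under 0.05, 19 were lower (12.6% of all genes) and 0 were higher (11.7% of all genes), and neither edgeR nor DESeq2 called any member higher (2.61% and 5.99% of all genes). In bulk RNA, fewer cells of a type and less RNA per cell cannot be told apart.

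The log2 fold change, 3D minus 2D, was below 0 for 31 of the 37 genes, against 48.5% of all genes tested. Its median over the 37 was -0.62, against 0.02 over all genes, and it ran from -1.56 (Tgfb1i1) to 1.14 (Lpp), both of which missed the threshold. In 13 of the 37, all 4 3D values lay below all 4 2D values (10.4% of all genes), and in 0 they all lay above (8.05% of all genes). The count of lower members was 7 with edgeR on the recovered reads (3.12% of all genes), which added Tgfb1i1, and 15 with DESeq2 (7.37% of all genes), which added Actn1, Actn4, Src, Tgfb1i1, Parvb, Lasp1, Pdlim5, Pdlim7 and Vasp. It was 11 after a trend with GC content was taken out of each library (5.13% of all genes), with 0 higher (4.09%), where Src, Tgfb1i1, Crk, Lims1 and Lasp1 were added, and 7 when scaled by library size alone (2.69%), with 0 higher (4.21%). Leaving out 1 library gave 10 lower members without 2D-4 (2.65% of all genes), 4 without 2D-3 (1.80%), 3 without 3D-2 (1.21%), 1 without 3D-1 (1.13%) and 1 without 3D-3 (0.880%). In fits without 1 library, the log2 fold change was -1.77 to -1.27 for Tns1, -1.44 to -1.13 for Tln1 and -1.17 to -0.91 for Ptk2b. It was -1.13 to -0.84 for Fermt2, -1.38 to -0.99 for Zyx and -1.45 to -1.20 for Bcar1. Without 2D-2, 3D-1 and 3D-2 together, 0 members were lower by limma (14 of all genes tested, 0.118%). Fewer libraries were fitted there, and the members' median log2 fold change was -0.69, against -0.01 over all genes.

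**Figure D1:**
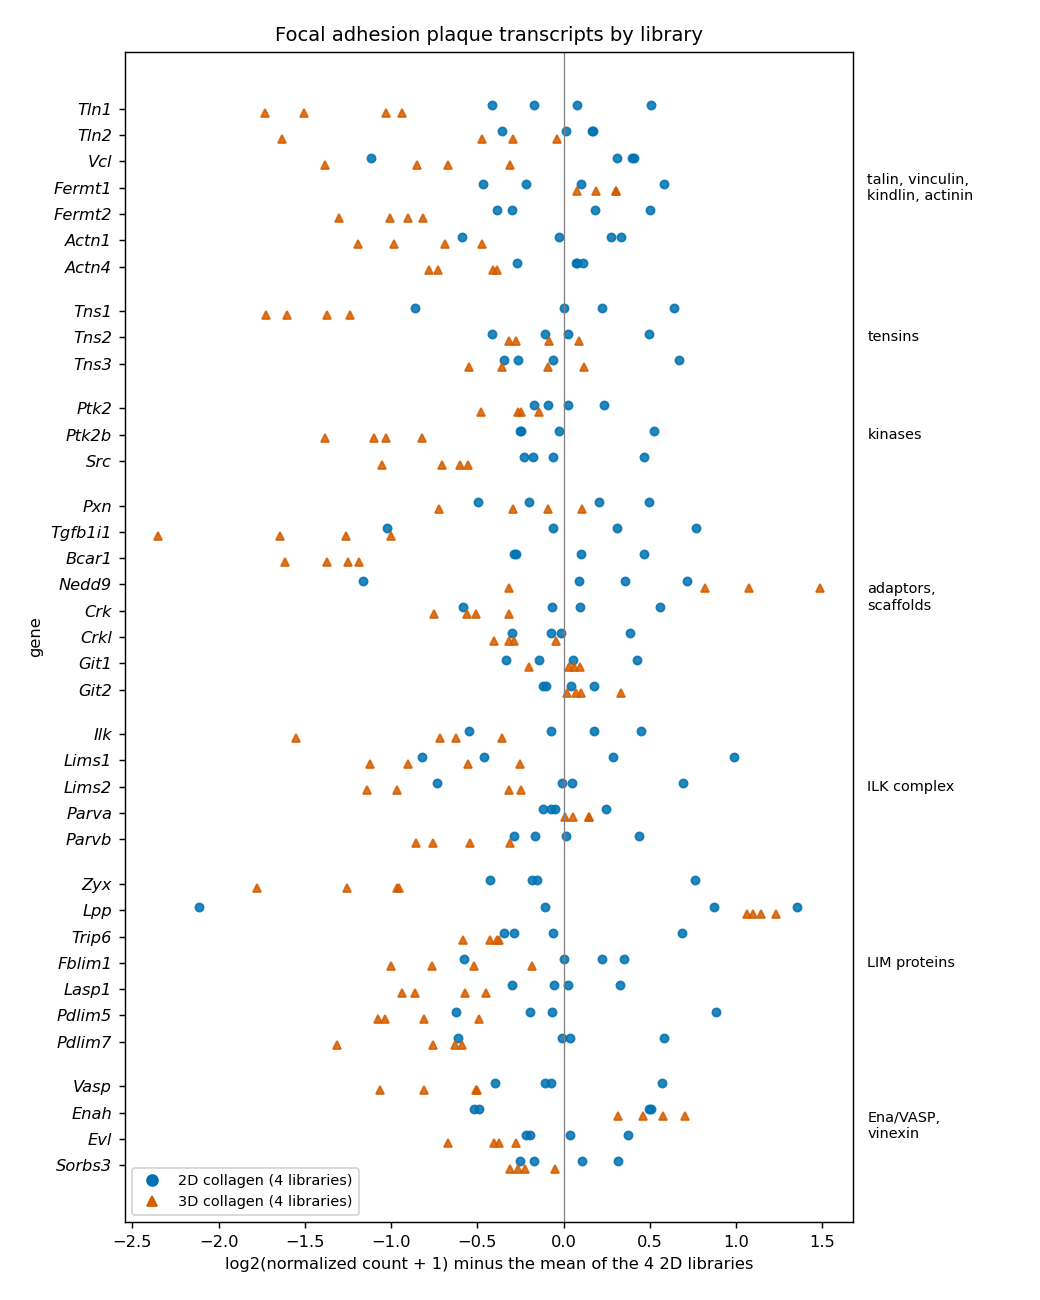
Each point is 1 library's log2(normalized count + 1) for a gene minus the mean of the 4 2D libraries for that gene (x axis, log2 units), with genes on the y axis grouped by role, circles for 2D collagen and triangles for 3D collagen. In 13 of the 37 genes every triangle lies to the left of every circle, and the leftmost circle belongs to 2D-4 in 19 genes.

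Talins, kindlins, vinculin and alpha-actinins make the mechanical link from integrin tails to actin, and 2 of their 7 genes fell, Tln1 and Fermt2, with a median log2 fold change of -0.80 over the 7. Tln1 encodes talin 1, which joins the integrin beta tail to actin (chr4:43531519-43562691 on GRCm38, minus strand). It had 25783, 41194, 30680 and 21770 normalized counts in 2D-1 to 2D-4 and 14233, 15147, 10237 and 8756 in 3D-1 to 3D-4. The lowest 2D library lay above the highest 3D library, and 2D-2 was the highest of all. Tln1 was 2.46-fold lower on 3D collagen, a log2 fold change of -1.30 (SE 0.25, adjusted p = 0.0212 by limma, over all alternatives 7.33e-05 to 0.083). Without 2D-3 the adjusted p was 0.0534, without 3D-1 it was 0.0504, without 3D-3 it was 0.083, and without 2D-2, 3D-1 and 3D-2 it was 0.0722.

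Fermt2 encodes kindlin-2, the widely expressed kindlin, which binds the integrin tail beside talin and helps activate the receptor (chr14:45458795-45530118, minus strand). It had 3607, 2886, 1952 and 2073 normalized counts on 2D collagen and 1034, 1360, 1268 and 1447 on 3D collagen. The groups did not overlap, and 2D-1 was the highest library. The log2 fold change was -1.01 (SE 0.22, adjusted p = 0.0300 by limma, over all alternatives 0.000695 to 0.242), or 2.01-fold lower on 3D. Its adjusted p rose past the threshold when scaled by library size alone (0.0679), without 2D-2 (0.0506), without 3D-1 (0.0887), without 3D-2 (0.0809), without 3D-3 (0.0993) and without 2D-2, 3D-1 and 3D-2 together (0.242). Fermt1, the kindlin-1 gene best known from epithelia, had 382 to 794 normalized counts on 2D and 559 to 656 on 3D, a log2 fold change of 0.22 (adjusted p = 0.596 by limma), with overlapping groups.

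Actn1 encodes alpha-actinin 1, an actin crosslinker, and was the most abundant member of the list per length on 2D collagen. Its normalized counts were 33264, 26960, 34602 and 18261 on 2D and 17020, 19804, 13902 and 12015 on 3D. Only 2D-4 lay within the range of the 3D libraries. Its log2 fold change of -0.83 (SE 0.24) missed the threshold with all libraries (adjusted p = 0.0781 by limma) and passed it without 2D-4 (adjusted p = 0.0361). Leaving out any 1 library gave an adjusted p of 0.0361 to 0.214. Antisense gene models cover 8.15% of its exonic bases, and since the strand setting of the counting is not given, their reads cannot be told apart.

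Vcl encodes vinculin, which is recruited to stretched talin and reinforces the link. It had 27163, 25437, 27021 and 9458 normalized counts on 2D and 12907, 16553, 11373 and 7865 on 3D. Libraries 2D-1 to 2D-3 were well above every 3D library, and 2D-4 lay among the 3D libraries. On the log2 scale the fold change of Vcl was -0.80 (SE 0.37, adjusted p = 0.221 by limma) and -1.17 without 2D-4 (adjusted p = 0.0371). When any 1 library was left out, its adjusted p ran from 0.0371 to 0.390. Exons of Ap3m1 on the other strand cover 25.5% of the exonic bases of Vcl. Actn4, the second alpha-actinin of non-muscle cells, had a log2 fold change of -0.58 (adjusted p = 0.0748 by limma) with groups that did not overlap, and Tln2, the minor talin, had -0.61 (adjusted p = 0.298) with groups that did.

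Tensins bind the integrin tail and actin and mark the elongated adhesions that carry matrix fibrils, and 1 of the 3 tested fell, Tns1 (chr1:73910231-74124449, minus strand). Its normalized counts were 10067, 11729, 15653 and 5536 on 2D and 4255, 3886, 3314 and 3037 on 3D. The 3D libraries were close together and all below 2D-4, the lowest 2D library. Tns1 was 2.80-fold lower, the largest fold of the 6, with a log2 fold change of -1.49 (SE 0.29, adjusted p = 0.0229 by limma, over all alternatives 1.75e-05 to 0.162). The call was lost without 3D-1 (adjusted p = 0.0581), without 3D-2 (0.0688), without 3D-3 (0.0842) and without 2D-2, 3D-1 and 3D-2 (0.162). Tns3 had a log2 fold change of -0.22 (adjusted p = 0.635) and Tns2 of -0.15 (adjusted p = 0.703), both with overlapping groups, and the sign of Tns2 turned when scaled by library size alone (0.03).

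The kinases were FAK (Ptk2), PYK2 (Ptk2b) and SRC (Src). Ptk2b (chr14:66153257-66281052, minus strand), a calcium-responsive relative of FAK, had 3644, 6231, 4245 and 3634 normalized counts on 2D and 2118, 2450, 2021 and 1655 on 3D. Every 2D library lay above every 3D library. It was 2.12-fold lower on 3D, with a log2 fold change of -1.08 (SE 0.21, adjusted p = 0.0207 by limma, over all alternatives 0.000124 to 0.093), and the adjusted p was 0.0605 without 3D-1, 0.0768 without 3D-3 and 0.093 without 2D-2, 3D-1 and 3D-2. Ptk2, the central kinase of focal adhesions, had 1883 to 2492 normalized counts on 2D and 1522 to 1922 on 3D, with overlapping groups and a log2 fold change of -0.28 (adjusted p = 0.264, 95% interval -0.60 to 0.04).

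Src, which docks on phosphorylated FAK, was the most abundant of these kinases per length. It had 6763, 10945, 7608 and 6996 normalized counts on 2D and 5224, 5387, 4864 and 3815 on 3D. The groups did not overlap, and 2D-2 was the highest library. The log2 fold change of -0.73 (SE 0.19) fell short of the threshold (adjusted p = 0.0596 by limma, over all alternatives 0.00947 to 0.174).

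Adaptors and scaffolds carry the phosphotyrosine signal, and 1 of the 8 fell. Bcar1 encodes p130Cas, a docking protein that is stretched by force and phosphorylated by SRC (chr8:111710474-111743809, minus strand). Its normalized counts were 6750, 11287, 6687 and 8751 on 2D and 2666, 3437, 3161 and 3586 on 3D. The 3D libraries were close together and all far below the 2D libraries. Bcar1 had the smallest adjusted p of the list, with a log2 fold change of -1.36 (SE 0.20, adjusted p = 0.00759 by limma, over all alternatives 8.65e-08 to 0.0954), 2.56-fold lower on 3D. The call held when any 1 library was left out (adjusted p 0.00772 to 0.0397) and was lost when 2D-2, 3D-1 and 3D-2 were left out together (0.0954).

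Nedd9, which encodes the other Cas-family docking protein among the 38 genes, had 1012, 788, 655 and 275 normalized counts on 2D and 1726, 1297, 1090 and 494 on 3D. Libraries 2D-4 and 3D-4 were the lowest of their groups, and the groups overlapped. Its log2 fold change of 0.77 (SE 0.47) did not pass the test (adjusted p = 0.352 by limma). Tgfb1i1 encodes Hic-5, a paxillin relative that also acts as a nuclear coactivator, and had 2587, 3546, 2000 and 1025 normalized counts on 2D and 666, 1042, 869 and 407 on 3D. Library 2D-4 lay just below 3D-2, so the groups overlapped by that library alone. Tgfb1i1 had a log2 fold change of -1.56 (SE 0.40, adjusted p = 0.0553 by limma) and without 2D-4 the adjusted p was 0.0221. Leaving out another single library gave up to 0.128.

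Pxn encodes paxillin, the scaffold that FAK and vinculin bind. It had 7166, 11615, 9493 and 5833 normalized counts on 2D and 8880, 7735, 6715 and 4987 on 3D, with a log2 fold change of -0.25 (adjusted p = 0.590 by limma, 95% interval -0.82 to 0.32). The groups overlapped across most of their range. The adaptors Crk and Crkl had log2 fold changes of -0.53 (adjusted p = 0.192 by limma) and -0.26 (adjusted p = 0.388), and after the GC trend was removed Crk was at -0.73 (adjusted p = 0.0476). The GIT scaffolds, which bring the PAK and PIX signalling proteins to paxillin, had 0.13 (Git2, adjusted p = 0.60) and -0.00 (Git1, adjusted p = 0.995), and the sign of Git1 turned under every other scaling, up to 0.17, as that of Git2 did after the GC trend was removed (-0.02).

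The complex of ILK, PINCH and parvin sits between the integrin tail and actin. None of its 5 genes passed the main limma test or edgeR. At an unadjusted p under 0.05 by limma, 2 were lower (12.6% of all genes), and DESeq2 called Parvb lower (7.37% of all genes). After the GC trend was removed, Lims1 was lower (log2 fold change -1.0, adjusted p = 0.0149 by limma). Ilk, the pseudokinase at its centre, had 14544, 17576, 12218 and 8788 normalized counts on 2D and 10031, 8342, 7830 and 4394 on 3D. Library 2D-4 fell between the 3D libraries and 3D-4 was the lowest. Ilk had a log2 fold change of -0.81 (SE 0.29, adjusted p = 0.133 by limma). Exons of Taf10 and Rrp8 on the opposite strand cover 89.7% of the exonic bases of Ilk. The strand setting is not given, so its value may hold their reads or lack reads of its own. The PINCH genes had log2 fold changes of -0.71 (Lims1, adjusted p = 0.288) and -0.67 (Lims2, adjusted p = 0.254), and the parvins had 0.09 (Parva, adjusted p = 0.732, -0.04 after the GC trend was removed) and -0.62 (Parvb, adjusted p = 0.0958, groups that did not overlap).

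The role group of the zyxin family and other LIM-domain proteins of actin filaments holds 7 genes, of which Zyx fell and 6 had a log2 fold change below 0. Zyx encodes zyxin, which binds strained actin and recruits Ena/VASP proteins (chr6:42349630-42360213, plus strand). It had 14541, 27981, 14865 and 12297 normalized counts on 2D and 8450, 8513, 6908 and 4825 on 3D. The groups did not overlap, and 2D-2 was far above the other 2D libraries. Zyx was 2.36-fold lower on 3D with a log2 fold change of -1.24 (SE 0.29, adjusted p = 0.0372 by limma, over all alternatives 0.000938 to 0.119). This was the largest adjusted p of the 6. The call was lost without 2D-1 (adjusted p = 0.0583), 2D-3 (0.0685), 3D-1 (0.0762), 3D-2 (0.0809), 3D-3 (0.119) or 3D-4 (0.0705), without both libraries numbered 4 (0.0555), without 2D-2, 3D-1 and 3D-2 (0.0930), and with limma's trend and robust options off (0.0526).

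Lpp and Trip6 encode the relatives of zyxin. Lpp had 841, 105, 1173 and 425 normalized counts on 2D and 1079, 986, 1016 and 959 on 3D. The 3D libraries were nearly equal, while the 2D libraries spanned them, with 2D-2 far below all others. For Lpp the log2 fold change was 1.14 (SE 0.63, adjusted p = 0.308 by limma). Trip6 had 4057 to 8299 normalized counts on 2D and 3433 to 3974 on 3D, a log2 fold change of -0.44 (adjusted p = 0.264) with groups that did not overlap. Of the other LIM genes, Lasp1 had -0.70 (adjusted p = 0.0546, and 0.0470 without 2D-1) and Pdlim7 -0.82 (adjusted p = 0.0981, and 0.0491 without 2D-4). Leaving out other single libraries gave up to 0.179 for Lasp1 and up to 0.215 for Pdlim7. Pdlim5 had -0.85 (adjusted p = 0.125) and Fblim1, which encodes the filamin binder migfilin, -0.62 (adjusted p = 0.161).

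Ena/VASP proteins elongate actin filaments at the plaque, and Sorbs3 encodes vinexin, which binds vinculin. None of these 4 genes passed the main limma test or edgeR. At an unadjusted p under 0.05 by limma, 2 were lower (12.6% of all genes), and DESeq2 called Vasp lower (7.37% of all genes). Vasp, the most abundant of them per length, had 6034, 9448, 5903 and 4824 normalized counts on 2D and 4468, 4485, 3621 and 3030 on 3D. The groups did not overlap, though 2D-4 was close to the upper 3D libraries. Its log2 fold change was -0.72 (SE 0.23, adjusted p = 0.0944 by limma). Evl had -0.43 (adjusted p = 0.166), Sorbs3 -0.21 (adjusted p = 0.458) and Enah 0.51 (adjusted p = 0.294).

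**Figure D2:**
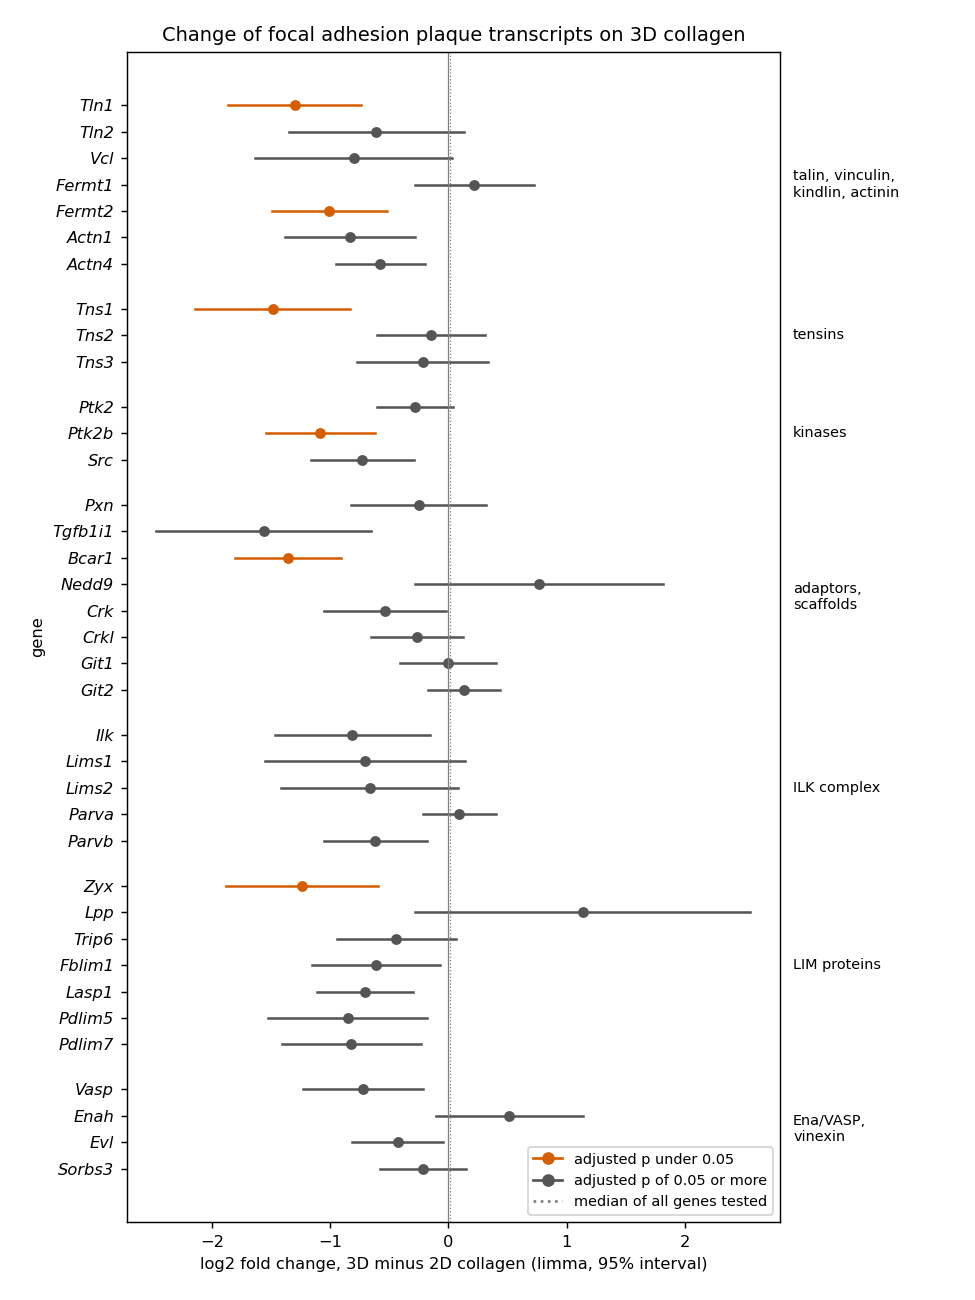
Log2 fold change of each of the 37 tested genes, 3D minus 2D collagen (x axis, limma estimate with its 95% interval, 4 libraries a group), grouped by role on the y axis, in orange where the adjusted p was under 0.05 and with a dotted line at the median of all genes tested. The 6 orange genes lie between -1.49 and -1.01, and the widest interval is that of Lpp.

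Levels were set side by side between genes only as RPKM, CPM divided by the kilobases of exon of the gene. On 2D collagen, Actn1 was highest at 249 ± 71.0 RPKM (SD, n = 4), followed by Ilk at 233 ± 51.3 and Actn4 at 229 ± 25.2. These 3 differed by less than their SDs, and the level of Ilk is uncertain because of its antisense overlap. Zyx (153 ± 45.0), Tln1 (146 ± 26.3) and Vcl (131 ± 50.6) came next and likewise lay within each other's SDs. On 3D collagen Actn4 came first at 173 ± 14.9 RPKM, with Actn1 at 154 ± 27.8 and Ilk at 151 ± 38.5, and Zyx was at 72.3 ± 13.8 and Tln1 at 67.0 ± 13.7. At the low end were Lpp at 1.45 ± 1.06 RPKM on 2D, Tln2 at 1.30 ± 0.299 and Enah at 0.883 ± 0.377. Of the 6 genes that fell, Fermt2 was the least abundant on 2D, at 24.7 ± 7.91 RPKM against 13.6 ± 2.70 on 3D, and Tns1 was the least abundant on 3D, at 12.3 ± 1.04 RPKM.

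**Figure D3:**
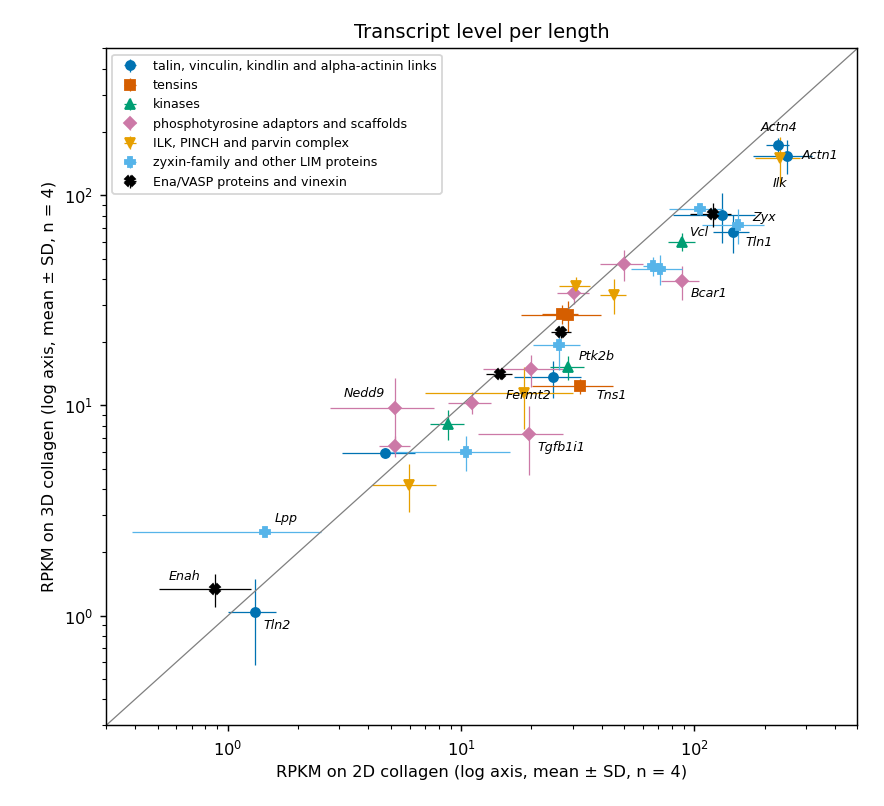
Mean RPKM of each of the 37 tested genes on 2D collagen (x axis) and on 3D collagen (y axis), both on log axes, with bars of 1 SD over 4 libraries and a diagonal where both are equal. Zyx, Tln1, Bcar1 and Tns1 lie below the diagonal with bars that do not reach it, while Lpp, Enah and Nedd9 lie above it with wide bars.

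Related genes were also compared as ratios within each library, which do not depend on the size factor. Of 18 pairs, 17 had both genes tested, and no pair passed an exact two-sided permutation test after adjustment over the pairs (smallest adjusted p = 0.0607). The smallest p that 4 against 4 libraries allow is 0.0286, and 8 pairs reached it with groups that did not overlap. Over 17 pairs, a pair at that p can pass after adjustment only if most of the pairs reach it too. The adjusted result therefore cannot decide whether the ratio of a single pair differed. No share over other gene pairs was computed to set beside that count, and Tns1 and Zyx recur among the 8. Genes of a pair can differ in GC content (Zyx 56.6%, Lpp 42.9%), so a ratio is not free of a GC trend. Parva was 1.57 times Parvb in normalized counts on 2D and 2.56 times on 3D (geometric means). Ptk2 was 0.490 times Ptk2b on 2D and 0.854 times on 3D, and 3D-4 was the only library in which Ptk2 was the higher of the pair. Tns1 was 1.60 times Tns3 on 2D and 0.663 times on 3D, and above Tns3 in every 2D library and below it in every 3D library. The other ratios without overlap were those of Pxn to Tgfb1i1 (3.96 on 2D, 9.82 on 3D), Zyx to Lpp (35.9 and 6.93), Zyx to Trip6 (3.21 and 1.85), Vasp to Enah (17.5 and 7.45) and Tns1 to Tns2 (3.37 and 1.33).

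In the other 9 pairs the groups overlapped. The ratio of Bcar1 to Nedd9 went from 13.3 on 2D to 3.04 on 3D (exact permutation p = 0.0571, adjusted p = 0.0971), and that of Fermt1 to Fermt2 from 0.208 to 0.487 (exact permutation p = 0.0571, adjusted p = 0.0971). Actn1 to Actn4 stood at 0.956 and 0.80 (exact permutation p = 0.200), Git1 to Git2 at 1.63 and 1.49 (exact permutation p = 0.60) and Lims1 to Lims2 at 4.42 and 4.30 (exact permutation p = 0.943). These last ratios moved by less than the spread between libraries.

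**Figure D4:**
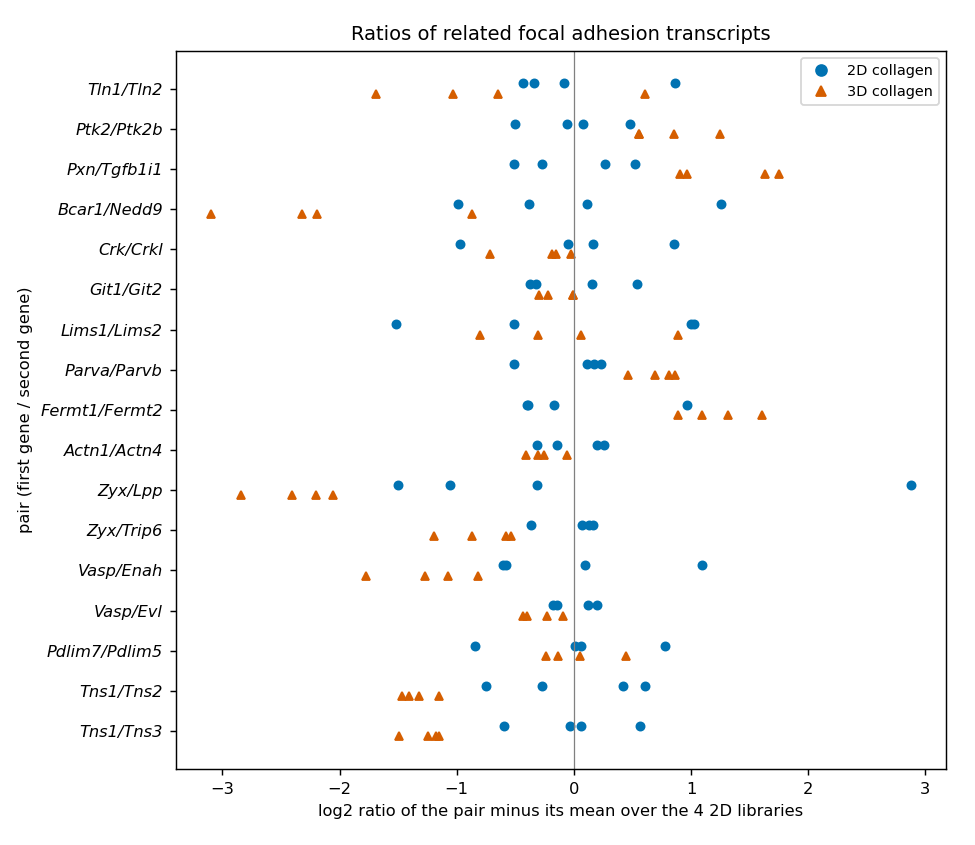
Log2 ratio of normalized counts of the 2 genes of a pair in each library, minus the mean of the 4 2D libraries (x axis, log2 units), for the 17 pairs on the y axis, with circles for 2D and triangles for 3D collagen. The circles and triangles are apart in 8 pairs, and Zyx to Lpp spreads most among the 2D libraries.

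Summed over the 38 genes, the list took 1.32%, 1.31%, 1.32% and 0.977% of all reads in 2D-1 to 2D-4 and 0.830%, 0.942%, 0.786% and 0.726% in 3D-1 to 3D-4. Library 2D-4 was nearer to 3D-2 than to the other 2D libraries. Actn1, Actn4, Tln1, Vcl and Zyx made up 41.0% to 51.7% of these reads. Of the 37 tested genes, 2D-4 was the lowest 2D library in 19 (30.6% of all genes tested) and 2D-2 was the highest in 19 (33.2% of all genes). On 3D collagen, 3D-4 was the lowest in 23 (37.0% of all genes) and 3D-2 the highest in 18 (21.0% of all genes). Over the 37 genes the median deviation from each gene's mean was 0.57 log2 units in 2D-2 and 0.34 after the GC trend was removed, -0.04 and -0.01 in 2D-4, and -0.49 and -0.35 in 3D-4. Without both libraries numbered 4, 8 members were lower (2.34% of all genes).

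**Figure D5:**
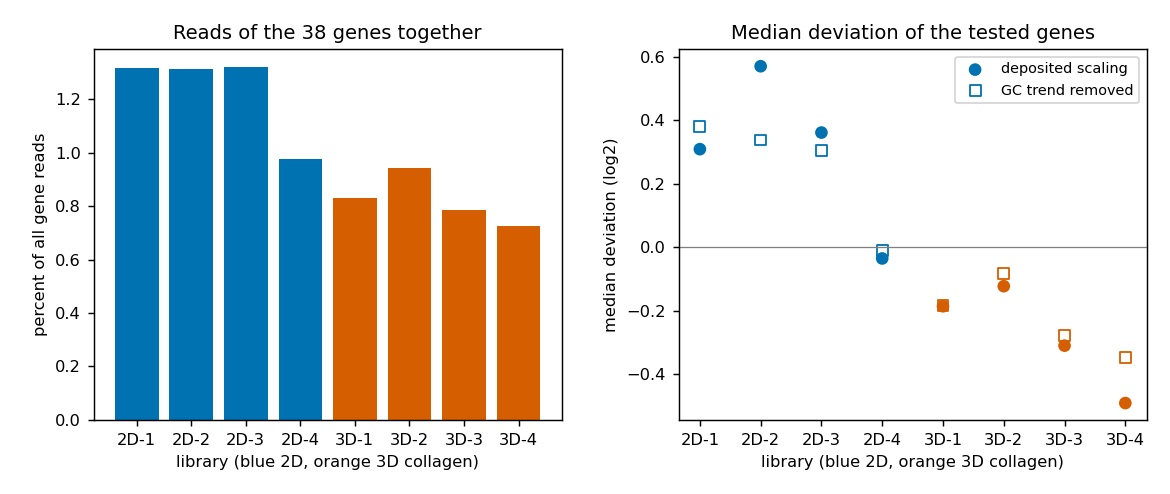
Left, the share of all gene reads taken by the 38 genes in each library (y axis, percent, bars from 0). Right, the median over the 37 tested genes of the log2 deviation from each gene's mean over the 8 libraries (y axis, log2), as deposited (filled) and after the GC trend was removed (open). As deposited, the 4 3D libraries sit at or below -0.12 on the right, 2D-4 at -0.04, and the other 2D libraries between 0.31 and 0.57.

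Other components of the integrin adhesome, taken from a list of 80 genes of which 71 were tested, were lower in 12 cases (16.9%, against 3.39% of all genes) and higher in 3 (against 2.33% of all genes), with a median log2 fold change of -0.09. This list too was chosen with earlier results of these data known. The 6 with the smallest adjusted p among the lower ones were led by Dlc1, whose product binds tensin, at 609 ± 115 normalized counts (SD, n = 4) on 2D and 160 ± 32.0 on 3D (log2 fold change -1.93, adjusted p = 0.00318 by limma). Synpo, which encodes the actin-bundling synaptopodin, had 6280 ± 1656 and 1499 ± 333 (-2.05, adjusted p = 0.00335). The LIM genes Fhl2 (-1.18, adjusted p = 0.00625) and Ajuba, listed under its older symbol Jub (-1.26, adjusted p = 0.00719), the filamin gene Flnc (-1.45, adjusted p = 0.00759) and Rapgef1, which encodes an exchange factor for RAP proteins that CRK binds (-1.02, adjusted p = 0.0103), were the others. Flna, Abl1, Vav2, Fhl3, Ptpn11 and Csk were lower too. None of the first 6 lost its call when any 1 library was left out, and all 6 did without 2D-2, 3D-1 and 3D-2.

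The 3 that rose on 3D collagen were Asap1, an ARF GTPase-activating protein that binds FAK and CRK, at 360 ± 48.0 and 765 ± 143 normalized counts (1.07, adjusted p = 0.0160 by limma), the small GTPase gene Rap1b at 1910 ± 406 and 3357 ± 120 (0.83, adjusted p = 0.0212), and the adaptor gene Nck2 at 157 ± 52.5 and 363 ± 80.1 (1.25, adjusted p = 0.0483). In all 3 the groups did not overlap. Their calls depended on single libraries. The adjusted p of Asap1 reached 0.0637 (lost without 3D-2 or without 3D-3), that of Rap1b 0.0819 (lost without 2D-3, 3D-1, 3D-2 or 3D-3, without both libraries numbered 4, and after the GC trend was removed, at 0.263) and that of Nck2 0.145 (lost when any single library other than 2D-2 was left out), and all 3 calls were lost without 2D-2, 3D-1 and 3D-2.

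Markers of other cell types were summed in CPM, since several focal adhesion genes are abundant in contractile cells. All 8 smooth muscle markers had reads in every library, and their sum was 1780 to 3864 CPM on 2D and 672 to 1412 CPM on 3D, so it moved with the list. Acta2, Tagln and Smtn carried nearly all of it, while the defining genes Myh11 and Des stayed at or below 1.22 and 0.707 CPM. By limma, Acta2 (1234 CPM on 2D and 619 on 3D, adjusted p = 0.256) and Tagln (349 and 175 CPM, adjusted p = 0.276) were not called. Neither were Cnn1 (adjusted p = 0.284) and Actg2 (adjusted p = 0.662). Smtn (1198 CPM on 2D and 286 on 3D) was lower by limma (adjusted p = 0.00144). Lmod1 (2.19 and 0.255 CPM) was called lower too (adjusted p = 0.00762 by limma), but it was near 0 on 3D. The 2D libraries alone can meet the filter on low values, so the call of Lmod1 may rest on that filter. The part of these contractile genes in the result was not tested. The sums of fibroblast markers (3.44 to 19.5 CPM on 2D, 4.24 to 17.4 on 3D), immune markers (20.9 to 39.8 and 26.3 to 39.0) and endothelial markers (14.5 to 29.8 and 17.5 to 39.7) overlapped between the groups. So did intestinal markers (6.11 to 19.2 and 6.08 to 17.5), which were highest in 2D-2, 3D-2 and 3D-1, and liver markers (2.13 to 21.4 and 0.434 to 25.5), which were highest in 3D-1 and 2D-2. The fibroblast marker Pdgfra was called higher on 3D (adjusted p = 0.0340 by limma), but it was near 0 in both groups (0.226 and 0.908 CPM). The 3D libraries alone can meet the filter on low values, so this call may rest on that filter. Oviductal epithelial markers summed to 5875 to 7269 CPM on 2D and 5074 to 6621 on 3D, of which Krt8 was lower on 3D (log2 fold change -0.76, adjusted p = 0.0397 by limma).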

How the data were processed

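RNA sequencing of 8 libraries (4 of MOE cells on 2D collagen, 4 on 3D collagen) was used as deposited. Counting used HTSeq 0.6.1p1 and the mm10 build, and DESeq2 is also named, per the submitters' processing notes. For the aligner, gene annotation and strand setting, the choice is not given in the sources used here. What the authors deposited is a normalized signal for each gene. In every library 100% of them were whole multiples of 1 read within 0.001 reads, and the divisors matched recomputed median-of-ratios size factors within 3.4e-09, so each value is a read count over the size factor of its library.

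The 38 members, the role groups and the other lists were chosen with earlier results of these data known. The main test was limma 3.58.1 (R 4.3.3, trended and robust prior) on log2(normalized count + 1), a scale that understates the change of low genes, over genes with at least 10 in at least 4 libraries, with Benjamini-Hochberg adjustment over all 11820 genes and a threshold of 0.05. The groups were compared without covariates. Data with 200 changed genes were simulated for the comparison of 3D with 2D collagen over 11820 genes. There limma recovered 4% of genes changed 1.5-fold, 26% of those changed 2-fold and 84% of those changed 4-fold. edgeR 4.0.16 and DESeq2 1.42.0 were run on the recovered reads. Ratios of related genes were tested with exact permutations.

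Gene positions, exon lengths and GC content came from GENCODE M21 on GRCm38, with 22856 symbols matched, 1903 of them through an older symbol. A lowess curve (span 30%) against GC content was the GC trend. Libraries of 1 group differed by more than the sampling noise of reads, so none was taken for a repeat sequencing of another. That comparison cannot tell whether they came from separate cultures. Written out in full are the members past the threshold and the most abundant member per length of each role group, and for the other adhesome genes up to 6 in each direction. Nedd9, Tgfb1i1, Pxn, Vcl and Lpp were written out after their values were seen. Marker lists for oviductal epithelium, fibroblasts, smooth muscle, immune cells, endothelium, intestine and liver were summed. Fits without both libraries numbered 4, and without 2D-2, 3D-1 and 3D-2 (the largest intestinal marker sums), were added after the data were seen.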

Additional observations from a re-analysis of the deposited data

Results flagged for a closer look

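Each of 76 groups of 4 libraries, 1 for each member and each form of collagen, was examined for a library whose gap to its nearest neighbour took a share of the group's range above Dixon's 95% critical value for 4 samples, and 4 were found. Chance gives about 1 in 20 such groups. Vcl had 9458 normalized counts in 2D-4, where the other 2D libraries had 25437 to 27163. Actn4 had 23799 in 2D-4, where the others had 30200 to 31056. Zyx had 27981 in 2D-2, where the others had 12297 to 14865. Parva had 7593 in 2D-3, where the others had 5907 to 6188. The values of Vcl and Actn4 in 2D-4 lie toward those of the 3D libraries, and the value of Zyx in 2D-2 lies away from them.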

How the results depend on the processing

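The 6 genes called lower were below 0 under every alternative run, and 29 to 31 of the 37 members were below 0, with medians of -0.72 to -0.44. Library size as the only scaling moved the median of all genes by 0.17 and upper-quartile scaling by 0.10, and relative to that shift the members' median stayed near -0.61. The number of lower members was 15 with DESeq2, 11 after the GC trend was removed and 0 without 2D-2, 3D-1 and 3D-2. Leaving out 1 library gave 1 to 10 lower members, 6 to 12 lower and 0 to 4 higher other adhesome genes, and 104 to 370 lower and 44 to 267 higher genes in all. Higher other adhesome genes numbered 5 with DESeq2. Without 2D-2, 3D-1 and 3D-2, other adhesome genes gave 0 lower and 0 higher, and all genes 14 lower and 0 higher. Over all genes DESeq2 called 871 lower and 708 higher, the GC correction 606 and 483, library size 498 higher, and leaving out both libraries numbered 4 gave 171 higher. The cause of these shifts was not tested, except that fewer libraries were fitted where some were left out.

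With the replicate number as a block (replicate block), 17 members were lower, among them Vcl (adjusted p = 0.0359) and Ilk (0.0182), and 1 was higher, Nedd9 (0.0148), 5 other adhesome genes were higher, and over all genes 742 were lower and 663 higher. With the block and the GC trend removed together, 19 members were lower and 1 higher, and 1084 genes were lower and 1001 higher. Same-numbered libraries deviated from their group means with correlations of -0.17, 0.37, 0.25 and 0.81 for numbers 1 to 4, so number 1 missed the 0.1 that was asked of every pair, and not every library correlated best with its own number. The labels give no shared culture or day, so the numbers were not taken to pair the samples. Numbers 2 to 4 had positive correlations, but only number 4 lay above every pair of unlike numbers. Library 2D-2 correlated more with 3D-1 (0.45) than with 3D-2, and 2D-3 about as much with 3D-1 (0.24) as with 3D-3.

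Members near 0 changed sign. Tns2 was at 0.027 with library size and 0.082 with the GC trend removed (0.082 with the block too), and -0.29 to 0.019 when 1 library was left out. Tns3 was at -0.33 to 0.0061 when 1 library was left out. Git1 was at 0.17 with library size, 0.036 with TMM, 0.10 with upper-quartile scaling, 0.013 with edgeR, 0.23 with the GC trend removed (0.23 with the block too), 0.090 without 2D-2, 3D-1 and 3D-2, and -0.11 to 0.14 when 1 library was left out. With the GC trend removed, with or without the block, Git2 was at -0.024, Parva at -0.035 and Sorbs3 at 0.013. The log2 ratio of Git1 to Git2 differed between 3D and 2D by 0.25 with the GC trend removed. When 1 library was left out, this difference was -0.26 to 0.048 for Git1 to Git2, -0.59 to 0.015 for Crk to Crkl, -0.54 to 0.30 for Lims1 to Lims2 and -0.25 to 0.29 for Pdlim7 to Pdlim5.

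At 15692699 to 25862036 reads per library, counting error is small for all members but Tns4. Tns4 was too low to test.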
